A study of Mus musculus with 64 samples.

Results

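The ubiquitin ligases, FoxO factors and signalling genes of muscle atrophy are described here through 9 genes: Fbxo32, Trim63, Fbxo30, Fbxo21, Foxo1, Foxo3, Klf15, Mstn and Ddit4. They are 9 of the 36332 genes in the table, picked by symbol, and all 9 passed the filter on low values in skeletal muscle. Ddit4 entered the set because it was seen to be lower in old than in young wild-type muscle, so that comparison chose it and is given below as a description with no test.

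Muscle loses mass when protein breakdown outpaces synthesis, and much of the breakdown runs through ubiquitin ligases that mark contractile proteins for the proteasome. The FoxO transcription factors switch these ligases on when insulin signalling through Akt is low, and glucocorticoids act on some of the same genes through the glucocorticoid receptor. Myostatin restrains muscle growth from outside the fibre, and Ddit4 (also called REDD1) restrains it from inside by damping the growth kinase complex mTORC1.

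The libraries are RNA sequencing of skeletal muscle, liver and omental adipose tissue taken at 5 and 20 months of age from mice that lost Myc in the whole body (KO) and from their wild-type counterparts (WT). The KO mice came from a cross of a B6.129 line that carries Gt(ROSA)26Sortm1(cre/ERT2)Tyj/J, a ubiquitous tamoxifen-activated Cre, with B6.129-B6.129S6-Myctm2Fwa/Mmjax, a Myc gene that Cre removes. The WT mice are labelled C57/B6, so genotype and strain background cannot be told apart. Every mouse, WT included, is labelled as having had 5 daily tamoxifen injections of 75 mg/kg around weaning, once it weighed 15 g or more. Muscle had 6 WT and 4 KO libraries from the younger age and 5 per genotype from the older one. Liver and adipose tissue had 6 per genotype from the younger age and 5 from the older one. Libraries are named by their codes: K or W for the genotype, 5 or 18 for the younger or older age (the other labels give 20 months for the latter), S, L or F for muscle, liver or adipose tissue, then a number. The labels do not say whether the libraries of a group are separate animals, so p-values measure the spread between these libraries.

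Muscle libraries held 15.4 to 22.4 M reads on genes, and a summed level of 12 muscle fibre markers of 150413 to 210034 CPM in every one. CPM is the name the table gives its values; they are reads scaled by a factor per library and not by gene length, so levels are compared between libraries and not between genes. The mean of Myc itself at 5 months was 29.1 ± 27.1 CPM (SD, n = 6) in WT muscle and 10.2 ± 5.21 CPM (n = 4) in KO muscle. At 20 months it was 7.91 ± 3.21 CPM (n = 5) in WT and 5.98 ± 3.83 CPM (n = 5) in KO muscle, and the ranges overlap at both ages. Xist, the transcript that marks a second X chromosome, was found in 2 WT and 2 KO muscle libraries at 5 months and in none at 20 months, so age is partly tied to sex, and results are also given without those libraries. The library W5S5277 was the lowest of the WT libraries at 5 months for 8 of the 9 genes, and results that rest on it are given without it. Its column header carries a suffix that no other muscle column has. The adipose columns of K5F5218 and K5F5248 carry it too, and the labels do not say what it marks.

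The 9 genes lie on 7 chromosomes of the mouse genome (GRCm38.p6): Fbxo32 at chr15:58175879-58214892, Trim63 at chr4:134315120-134329629, Fbxo30 at chr10:11281330-11305750, Fbxo21 at chr5:117976770-118010198 and Foxo1 at chr3:52268337-52350109. Foxo3 lies at chr10:42181845-42276695, Klf15 at chr6:90461043-90491803, Mstn at chr1:53061640-53068079 and Ddit4 at chr10:59949675-59951770. Fbxo32 overlaps the gene model Gm36112, which had no read in muscle, and Foxo3 overlaps Gm38485, which stayed at or under 1.05 CPM there.

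Promoter windows of 250 bases before the start site, from RefSeq, were available for 8 of the 9 genes, all but Fbxo32. The 3 promoters printed here are Trim63, because its window holds a FoxO motif beside a glucocorticoid receptor motif, Klf15, because its window holds a repeated E-box, and Ddit4, because its level differed most between groups. Capitals mark the motif letters, and each line reads 5′ to 3′ on the strand of the gene.
Trim63: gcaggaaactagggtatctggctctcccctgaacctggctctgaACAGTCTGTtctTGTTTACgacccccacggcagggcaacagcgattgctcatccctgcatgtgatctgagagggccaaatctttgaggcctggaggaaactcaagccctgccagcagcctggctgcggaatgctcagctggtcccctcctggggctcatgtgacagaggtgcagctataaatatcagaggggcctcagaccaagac
Klf15: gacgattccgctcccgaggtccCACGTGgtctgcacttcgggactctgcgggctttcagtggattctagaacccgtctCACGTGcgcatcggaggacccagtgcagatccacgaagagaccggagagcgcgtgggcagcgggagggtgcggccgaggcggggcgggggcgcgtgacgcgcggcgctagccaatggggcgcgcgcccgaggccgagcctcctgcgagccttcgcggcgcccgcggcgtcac
Ddit4: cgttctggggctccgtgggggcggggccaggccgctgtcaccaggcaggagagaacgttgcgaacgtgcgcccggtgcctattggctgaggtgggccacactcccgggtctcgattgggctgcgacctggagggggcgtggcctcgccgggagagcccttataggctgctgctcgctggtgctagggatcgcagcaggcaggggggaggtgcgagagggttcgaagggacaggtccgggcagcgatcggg
The windows are chr4:134314870-134315119 on the plus strand for Trim63, chr6:90462326-90462575 on the plus strand for Klf15 and chr10:59951771-59952020 on the minus strand for Ddit4. In the Trim63 window ACAGTCTGT, a match to the glucocorticoid receptor letters ACANNNTGT, spans the bases 206 to 198 before the start site. It is followed after 3 bases by TGTTTAC, the FoxO motif GTAAACA read on the other strand, at the bases 194 to 188. The Klf15 window holds the E-box CACGTG at the bases 228 to 223 and again at 172 to 167. None of the 3 motifs was found on either strand in the windows of Ddit4, Fbxo30, Fbxo21, Foxo1, Foxo3 and Mstn. Among 32851 promoter windows of this length, 3.17% held GTAAACA, 5.84% ACANNNTGT and 6.02% CACGTG on either strand. A match describes letters and does not show that a factor binds there.

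Across the muscle groups 8 of the 9 genes had their lowest median in WT at 20 months, and Fbxo21 alone ran the other way. The levels that follow are medians and single libraries, and log2 fold changes are on the log2(CPM + 1) scale with their standard errors.

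Fbxo32 encodes the F-box protein of an atrophy-induced ubiquitin ligase, also called MAFbx. In the 6 WT libraries at 5 months it ran from 1043 CPM in W5S5277 through a median of 2382 CPM to 4842 CPM in W5S5004. The WT libraries at 20 months read 708, 1797, 2463, 826 and 2272 CPM, so 3 of the 5 lay within the younger range. KO muscle held 2476, 3602, 1954 and 2472 CPM at 5 months. At 20 months the KO values were 2461, 2866, 4284.2, 2392 and 1838 CPM, and all groups overlapped. The 20-month KO libraries were as high as the young ones, and K18S62 was the highest of them.

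Trim63 encodes MuRF1, the ring-finger ligase that marks myosin and other thick filament proteins. Its WT values at 5 months ran from 433 CPM in W5S5277 to 7490.1 CPM in W5S5004, around a median of 5401 CPM. The WT values at 20 months were 1752, 1157, 1665, 359 and 1035 CPM. Old WT muscle thus lay below every young WT library but W5S5277. The 4 KO libraries at 5 months sat close together at 5425, 5463, 4248 and 5380.2 CPM. Those at 20 months spread over 3598, 2548, 5707, 1228 and 720.0 CPM, so that K18S62 stood at the young level and K18S63 and K18S64 within the old WT range.

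Fbxo30 (MUSA1) is an F-box ligase subunit that BMP signalling holds down in muscle. Its WT levels at 5 months ran from 31.1 to 83.6 CPM with a median of 59.1 CPM, and at 20 months from 31 to 45.4 CPM with a median of 38.9 CPM. KO muscle held 52.2, 56.4, 42.6 and 66.6 CPM at 5 months and 55.3, 37.8, 78.1, 45.3 and 38.1 CPM at 20 months. These ranges overlapped in every pair of groups.

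Fbxo21 (SMART) is another F-box subunit linked to FoxO-dependent atrophy, and its median was higher at 20 months than at 5 months in both genotypes. In WT muscle it ran from 10.4 through a median of 20.2 to 37.9 CPM at 5 months. At 20 months the WT values were 23.2, 42.2, 30.9, 37.3 and 37.6 CPM. The highest young WT value came from W5S5277, the library in which the other 8 genes were lowest. KO muscle held 14.8, 31.8, 19.0 and 14.5 CPM at 5 months and 23.7, 42.4, 31.5, 36.2 and 37.1 CPM at 20 months, which overlaps the WT values at each age.

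Foxo1 and Foxo3 are the FoxO factors that drive the ligases. Foxo1 ran from 28.6 to 242 CPM in WT at 5 months, with a median of 168 CPM, and read 80.2, 26.7, 48.5, 23.1 and 40.1 CPM in WT at 20 months. Only W5S5277 reached down into the old WT range. In KO muscle Foxo1 was even at 5 months, with 185, 184, 170.4 and 163 CPM. It then spread at 20 months over 126, 144, 331, 34.9 and 30.7 CPM, with 3 libraries above the old WT range and 2 inside it. Foxo3 ran from 53.7 to 166 CPM in WT at 5 months and from 46.6 to 71.3 CPM in WT at 20 months. Its KO values were 109, 128, 124 and 126 CPM at 5 months and 112, 108, 184, 68.4 and 62 CPM at 20 months, the same split of 3 high and 2 low libraries.

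Klf15 is a transcription factor induced by glucocorticoids that raises amino acid breakdown in muscle. It ran from 61 through a median of 249.9 to 337 CPM in WT at 5 months. WT libraries at 20 months read 83.6, 95.9, 98.9, 65.1 and 84.8 CPM, below all young WT libraries except W5S5277. KO values were 287, 247, 198 and 217 CPM at 5 months and 157, 148, 258, 125 and 83.6 CPM at 20 months. Of the old KO libraries 4 lay above the whole old WT range.

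Mstn encodes myostatin, the secreted restraint on muscle growth. WT levels ran from 32.0 to 279.7 CPM at 5 months, with a median of 169 CPM, and were 56.8, 42.7, 46.0, 50.4 and 27.7 CPM at 20 months. KO levels were 113, 174, 103 and 109.9 CPM at 5 months and 80.5, 72.2, 89.9, 23.8 and 28.6 CPM at 20 months. The KO ages did not overlap, while the WT ages did, through W5S5277.

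Ddit4, the brake on mTORC1, had the widest range over the 20 libraries. Its WT values at 5 months were 880.2 CPM in W5S5004, 962 in W5S5007, 429 in W5S5041, 519 in W5S5042, 29.3 in W5S5277 and 76.8 in W5S5299. At 20 months the WT libraries read 19.1, 17.6, 24.8, 9.55 and 20.2 CPM, all below the lowest young one. KO muscle held 549, 375, 249.5 and 359.6 CPM at 5 months. The old KO libraries ranged over 92.2, 157, 529, 18.3 and 17.8 CPM, from the young KO level in K18S62 to the old WT level in K18S63 and K18S64. K18S63 and K18S64 were the lowest old KO libraries for Trim63, Foxo1, Foxo3, Klf15, Mstn and Ddit4 alike.

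**Figure D1:**
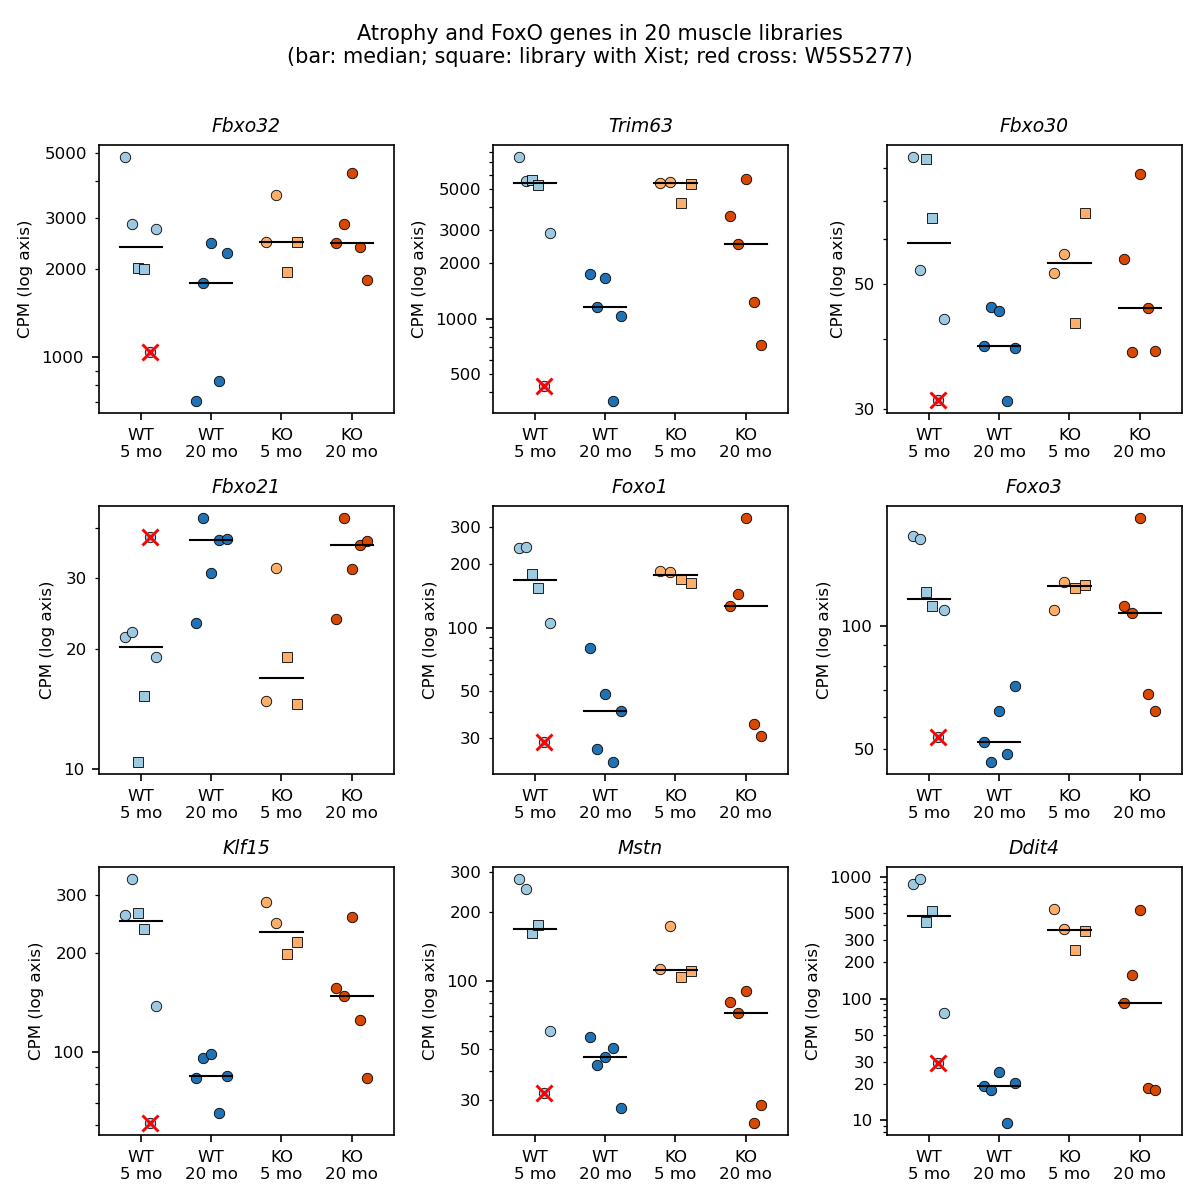
Level of the 9 genes in each of 20 muscle libraries, in CPM on a log axis, by genotype and age; bars are medians, squares are libraries with Xist and the red cross is W5S5277. The median of old WT libraries is the lowest for all genes but Fbxo21, though old and young WT libraries overlap widely for Fbxo32. W5S5277 sits near the old WT libraries.

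The first comparison asked whether ageing moved these genes in WT muscle; it is the one that chose Ddit4 and is described without a test. Ddit4 had a log2 fold change of -3.90 (SE 0.86), a level at 20 months 0.0669 times that at 5 months on this scale, and its groups did not overlap. Lower groups without overlap occurred for 1.95% of the 13237 genes tested in muscle. The fold changes of the factors were -1.70 (SE 0.56) for Foxo1, -1.03 (SE 0.26) for Foxo3 and -1.16 (SE 0.33) for Klf15. Those of the ligases were -1.70 (SE 0.62) for Trim63, -0.71 (SE 0.36) for Fbxo32 and -0.51 (SE 0.23) for Fbxo30, and Mstn had -1.51 (SE 0.47). Fbxo21 had 0.75 (SE 0.25). In all 8 of the 9 genes were below 0, with a median over the 9 of -1.16 beside 0.03 over all genes tested; 18.6% of all genes were called in this comparison. Ddit4 had -4.54 without W5S5277 and -3.51 with only the libraries without Xist. In bulk tissue, fewer cells of a type and less RNA per cell cannot be told apart.

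The same ageing comparison in KO muscle shares no library with the WT one and can be tested. None of the 9 genes was called by limma with Benjamini-Hochberg adjustment over 13237 genes, of which 5.57% were called, and 3 had an unadjusted p under 0.05, as did 25.6% of all genes. edgeR and DESeq2 called 0 as well. Limma on the 2 KO groups alone called Fbxo21, with 1778 genes called in all in place of 737. Ddit4 stood at -2.25 on the log2 scale (SE 0.95, adjusted p = 0.148) and Mstn at -1.23 (SE 0.52, adjusted p = 0.147) with limma. Mstn was the only gene of the 9 whose KO ages did not overlap, which 6.87% of all genes did in that direction. Fbxo21 had 0.79 (SE 0.28, adjusted p = 0.0970), close to its WT value of 0.75. Trim63 at -1.24 (SE 0.69), Foxo1 at -0.92 (SE 0.62), Klf15 at -0.70 (SE 0.37) and Foxo3 at -0.30 (SE 0.29) were below 0 with adjusted p from 0.234 to 0.539. Fbxo32 at 0.05 (SE 0.40) and Fbxo30 at -0.13 (SE 0.25) lay near 0. The median over the 9 genes was -0.70 beside -0.02 over all genes, and 7 of the 9 were below 0. Without K18S62, the high old library, Ddit4 had -2.94 and Foxo1 -1.38; without K18S64 they had -1.74 and -0.53, and the 9 genes stayed uncalled in each fit that left out 1 library.

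**Figure D2:**
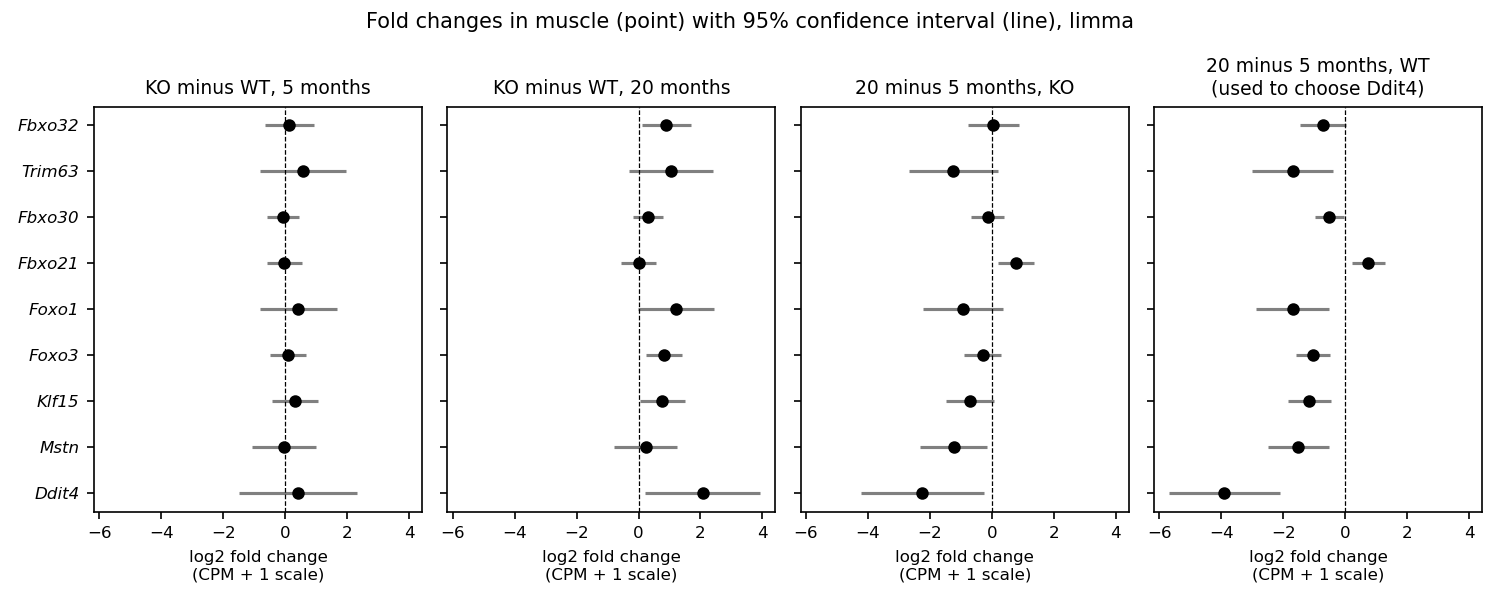
Log2 fold change of the 9 genes in 4 muscle comparisons, with 95% confidence intervals from limma. In WT ageing Ddit4 lies farthest below 0 at -3.90, and in KO against WT at 20 months every gene lies at or above 0.

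At 5 months the comparison of KO with WT muscle found no difference beyond the spread between libraries for any of the 8 genes other than Ddit4. Fold changes ran from -0.07 for Fbxo30 (SE 0.24) to 0.59 for Trim63 (SE 0.67). Of the 8, 0 had an unadjusted p under 0.05, beside 4.10% of all genes, and 0% of all 13237 genes were called by limma. edgeR and DESeq2 also called 0 of the 8. Ddit4, whose WT libraries here are those of the comparison that chose it, had 0.42 (SE 0.91) and is given without a test. Foxo1 had 0.42 (SE 0.60) and Klf15 0.30 (SE 0.35). Without W5S5277 these values were -0.22 for Ddit4, -0.01 for Foxo1 and -0.02 for Klf15.

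At 20 months all 9 fold changes of KO over WT muscle were above 0. Of the 8 genes other than Ddit4 limma called 0, beside 0.0302% of all genes, and 3 had an unadjusted p under 0.05, beside 13.8% of all genes. This comparison uses the WT 20-month libraries that also entered WT ageing. Foxo3 had a log2 fold change of 0.83 (SE 0.27), with 3 of 5 KO libraries above every WT library, an unadjusted p of 0.0069 and an adjusted p of 0.295 from limma. Fbxo32 had 0.90 (SE 0.37, adjusted p = 0.323), Foxo1 1.20 (SE 0.59, adjusted p = 0.372) and Klf15 0.76 (SE 0.35, adjusted p = 0.347). Trim63 had 1.04 (SE 0.65, adjusted p = 0.464), Fbxo30 0.31 (SE 0.24, adjusted p = 0.547) and Mstn 0.24 (SE 0.49, adjusted p = 0.845). Fbxo21 stood at 0.00 (SE 0.27), and its sign turned with single libraries left out. Ddit4 had 2.07 (SE 0.90), given with no p since these WT libraries took part in choosing it. The median of the 9 was 0.83 beside -0.03 over all genes, and for none of them did the groups part without overlap. Without K18S62 the values were 1.38 for Ddit4 and 0.74 for Foxo1. Markers of other cells also lay above 0 in this comparison, with 0 called: 6 of 6 Schwann cell (median 0.48), 6 of 6 macrophage (0.47), 6 of 6 erythroid (0.87), 8 of 8 adipocyte (0.41) and 6 of 6 endothelial markers (0.24). Less even were the fibroblast markers, 4 of 6 above 0 (0.13), and the muscle fibre markers, 5 of 12 above 0 (-0.16). The summed Schwann cell markers ran from 62.9 to 121 CPM in WT and from 126 to 139.6 CPM in KO muscle, without overlap. Macrophage markers ran from 25.4 to 98.6 CPM and from 46.2 to 98.1 CPM, and adipocyte markers from 313 to 561 CPM and from 430.2 to 611 CPM. Endothelial markers ran from 349 to 517 CPM and from 406 to 574 CPM, and erythroid markers from 161 to 679.7 CPM and from 215 to 2210 CPM. The lean was not particular to 20 months. In KO against WT muscle at 5 months, 6 of 6 Schwann cell markers lay above 0 (median 0.66), with 0 called. Of them 5 had an unadjusted p under 0.05 by limma, beside 4.10% of all genes. Above 0 there were also 5 of 6 macrophage (0.35), 8 of 8 adipocyte (0.40), 6 of 6 endothelial (0.22) and 3 of 6 erythroid markers (0.00). Every marker of these lists had reads, and their part in the result was not tested.

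An interaction term set the KO effect at 20 months against that at 5 months. Limma called 0 of the 8 genes other than Ddit4 and 0% of all genes, with 0 of the 8 at an unadjusted p under 0.05, beside 3.31% of all genes. The differences between the 20-month and the 5-month effect ran from 0.03 for Fbxo21 to 1.65 for Ddit4, all 9 above 0. The value of Ddit4 is a description, and the adjusted p was 0.999 for each of the 8 others. The change with age is therefore not shown to differ between genotypes for these 8 genes.

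Libraries that were high in their group for one gene were often high for others. After removing group means, the 28 pairs among the 8 genes other than Fbxo21 had Pearson r from 0.440 to 0.923 (median 0.813) over 20 libraries, and Spearman rho from 0.404 to 0.926 (median 0.730). Of these, 27 by Pearson and 21 by Spearman passed an adjusted p under 0.05, from 100000 within-group permutations adjusted over 36 pairs. Both counts include the pairs of Ddit4, whose WT libraries here also chose it, so for those pairs they only describe. Among all pairs of the 13237 genes tested in muscle the median r was 0.014, 11.4% of pairs lay at or above 0.440 and 0.309% at or above 0.813. The groups did not contribute alike. In WT at 5 months and in KO at 20 months r was above 0 in all 28 pairs, while it was below 0 in 6 pairs in WT at 20 months and in 5 in KO at 5 months, groups too small for a correlation of their own. The closest pair by Pearson was Klf15 and Ddit4, with r of 0.923 and rho of 0.917. Their p is not given, since the WT libraries here chose Ddit4. Among pairs without Ddit4 the closest by Pearson was Trim63 and Foxo1. They had r of 0.9215 (permutation p = 2e-05, adjusted p = 0.00036) and rho of 0.926 (permutation p = 5e-05, adjusted p = 0.0006). Leaving out the 2 libraries farthest from the median gave r from 0.0789 to 0.895 (median 0.608), with 0.895 for Klf15 and Ddit4. The relation of Fbxo32 and Mstn, 0.440 over all libraries and 0.0789 without that pair, rests on those libraries. The pairs of Fbxo21 mostly ran the other way, with r from -0.562 to 0.0418 in its 8 pairs, of which 2 passed by Pearson and 0 by Spearman. That relation rests on few libraries: without the 2 farthest its r ran from -0.363 to 0.385 (median -0.08), and without W5S5277 from -0.338 to 0.436 (median -0.09), with 2 of 8 above 0. Without W5S5277 the 28 pairs ranged from 0.198 to 0.914, and over the 16 libraries without Xist from 0.477 to 0.928.

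Of the single libraries W5S5277 had the lowest value of its group for all 8 genes other than Fbxo21 and the highest for Fbxo21. K18S62 had the highest value of its group for all 8, and K18S64 the lowest for 6 of them. W5S5004 and W5S5007 shared the highest WT values at 5 months, in 5 and 3 genes. W5S5277 had 16.8 M reads and K18S62 had 19.4 M, within the 15.4 to 22.4 M of all muscle libraries. The part of library quality in these values was not tested.

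**Figure D3:**
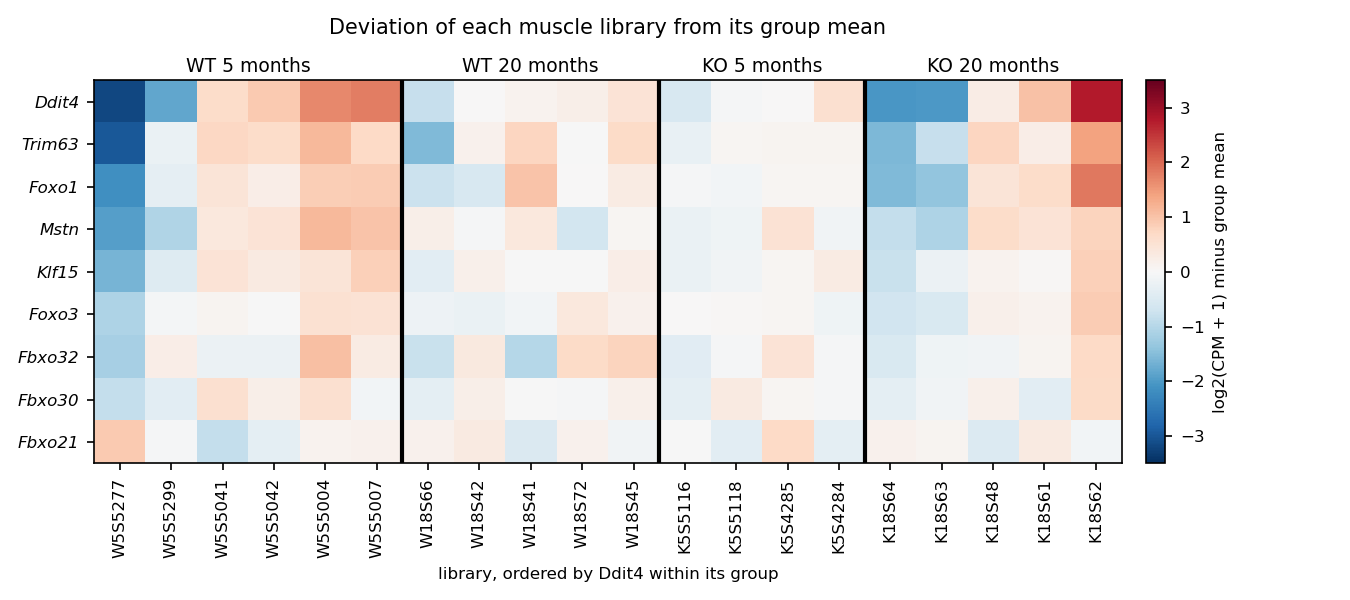
Deviation of log2(CPM + 1) from its group mean for the 9 genes in 20 muscle libraries, ordered by Ddit4 within each group. The columns of W5S5277 and K18S62 have one sign for all genes but Fbxo21, which has the opposite sign in W5S5277.

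For each gene the others with the most similar pattern over the 20 muscle libraries were sought among 9757 genes of at least 5 CPM. Ddit4 was nearest to Cebpb, a bZIP factor of the stress response, with r of 0.974. Trim63 was nearest to Cebpd (0.970) and Sesn1 (0.967), and Sesn1, a FoxO target that damps mTORC1, was also second for Klf15 (0.965). Foxo1 was nearest to Lrrc58 (0.988) and Zbtb16 (0.978), a glucocorticoid-induced factor. Fbxo32 was nearest to Klhl38 (0.915), Fbxo30 to Hnrnpf (0.922), Foxo3 to Npc1 (0.968), Klf15 to Wbp1l (0.974) and Mstn to Fibin (0.943). Fbxo21 was nearest to Vps26b (0.950). With group means removed these r lay at 0.881 for Klhl38, 0.910 for Hnrnpf, 0.949 for Cebpb and 0.966 for Cebpd. The points share libraries and scaling, so these values describe and carry no p.

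Genes of the surrounding pathways were counted in muscle by lists. In WT ageing, the comparison that chose Ddit4 and so no independent evidence, the glucocorticoid response list had 12 of 20 genes called lower and 0 higher by limma, against 7.68% of all genes called lower. Its median was -1.39 beside 0.03 over all genes, and 19 of 20 were below 0. The 4 with the largest change were the metallothioneins Mt2 (-3.93) and Mt1 (-3.53), the factor Cebpd (-2.82) and Glul (-2.37), which makes glutamine. That count was 0 of 20 with only the libraries without Xist, where 855 genes were called in all in place of 2463, and 14 without W5S5277. edgeR called 13 lower. Markers of other cells were lower too: 4 of 6 macrophage, 3 of 6 Schwann cell, 2 of 6 fibroblast and 2 of 6 endothelial markers were called lower. The summed level of the macrophage markers ran from 56.7 to 211 CPM (median 108 CPM) at 5 months and from 25.4 to 98.6 CPM (median 42.4 CPM) at 20 months in WT muscle. Their part in the result was not tested. Muscle fibre markers had 0 of 12 called.

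Most other lists were called at a share nearer that of all genes, 18.6%, of which 7.68% lower. The FoxO family with its insulin and Akt regulators (26.7% called) had 4 of 15 genes called lower in WT ageing and 0 higher: Sgk1 (-1.43), Irs2 (-1.16), Igf1r (-0.73) and Ywhaz (-0.37). FoxO targets of autophagy (25% called) had 3 of 16 lower, Ctsl (-0.97), Bnip3 (-0.93) and Ulk1 (-0.70), and Atg12 higher (0.35). Metabolic FoxO targets (28.6% called) split, with Sesn1 (-2.11) and Txnip (-0.60) lower and Sesn3 (0.85) and Prkaa2 (0.52) higher among 14 tested. The ubiquitin and proteasome list, with 21.7% called and 8.70% lower, was near the share over all genes and had Fbxo31 (-0.85) and Psmc4 (-0.35) lower and Wwp1 (0.61), Trim55 (0.53) and Trim32 (0.45) higher among 23. With only the libraries without Xist none of these 4 lists had a gene called lower. Without W5S5277, 7 autophagy, 5 metabolic and 6 ubiquitin genes were called lower, while the calls over all genes went from 2463 to 3838.

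The lists around myostatin (16.7% called), the mTORC1 arm (21.4%) and denervation (18.2%) had about the share of all genes, so their genes are named as single values. Around myostatin, the receptor Acvr1b (-0.89) and the processing protease Furin (-0.56) were lower in old WT muscle and the receptor Acvr2a was higher (0.54), among 18 genes tested. The arm of Ddit4 and mTORC1 had Castor1 (-0.82) and Tsc2 (-0.35) lower and the S6 kinase Rps6kb1 (0.37) higher among 14. Denervation genes had Dach2, a repressor of myogenin, higher (1.52) and Ncam1 lower (-1.09) among 11. The immediate early list had 5 of 15 genes called lower (33.3%, beside 7.68% of all genes), led by Btg2 (-2.36), Zfp36 (-2.05), Junb (-1.39) and Ier2 (-1.17). All 15 were below 0, and 1 was called lower without the Xist libraries. The summed list read 8820 CPM in W5S5041 and 14353 CPM in W5S5042, the young WT libraries with Xist. It ran from 783 to 1456 CPM in the other young WT libraries. Old WT libraries ran from 423 to 777 CPM, except W18S41 at 5201 CPM. The clock list had 3 of 16 higher, among them Bhlhe41 (1.26), and 2 lower, Per1 and Cry2 (-1.03). Lists share genes: Per1 is also counted in the glucocorticoid list, as is Sgk1 of the FoxO family list. With only the libraries without Xist the myostatin and clock lists had 0 genes called, the mTORC1 arm 1 and the denervation list 2.

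In KO ageing the glucocorticoid list had 0 of 20 called by limma and by edgeR, with 7 at an unadjusted p under 0.05 (25.6% of all genes), 17 below 0 and a median of -0.86 beside -0.02 over all genes. The immediate early list had 0 of 15 called by limma, with 9 at an unadjusted p under 0.05, all 15 below 0 and a median of -1.51. The autophagy (6.25% called), metabolic (7.14%) and ubiquitin (4.35%) lists were near the share of all genes, 5.57%, so their genes are single values. Tfeb, a factor of lysosomal genes, was lower (-0.48) among the autophagy genes, and Sesn3 (1.06) and Wwp1 (0.51) were higher in their lists. Around myostatin (16.7% called) the receptors Acvr2a (0.74) and Tgfbr1 (0.53) were higher and the protease Bmp1 (-0.60) was lower. In the denervation list (18.2% called) Dach2 was higher (1.48) and Ncam1 lower (-0.81). Without K18S62, Tfeb, Bmp1 and Ncam1 lost their calls, and the glucocorticoid and clock lists each went from 0 to 1 gene called lower. Schwann cell markers had 3 of 6 and fibroblast markers 2 of 6 called lower in KO ageing as well, beside 1.96% of all genes. For KO against WT muscle, limma called 0 genes of these lists at either age. At 20 months 6 of 20 glucocorticoid genes had an unadjusted p under 0.05, beside 13.8% of all genes, and 19 of 20 were above 0, with a median of 0.69 beside -0.03 over all genes.

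Liver and adipose tissue served to see which of these patterns lay outside muscle. Of the 9 genes 7 passed the filter in each; Trim63 and Mstn did not. Mstn had no read in any liver library and at most 0.536 CPM in adipose tissue. Trim63 reached 1.19 CPM in liver and 10.3 CPM in the adipose library W5F5277, where muscle fibre markers summed to 1029 CPM; in W5F5041 it read 7.17 CPM beside a sum of 512 CPM. In K5F5118 the sum was 847 CPM and Trim63 read 0.216 CPM. In K5F5218, the highest KO library at 5 months for Trim63 (1.24 CPM), the sum was 492 CPM. The part of muscle RNA in these values was not tested.

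Levels between tissues were compared in WT mice at 5 months, over 9710 genes. Of the 6 genes with a test, Ddit4 left out, 4 were higher in muscle than in liver and 1 lower, and 5 were higher than in adipose tissue and 1 lower, where 70.6% and 68.9% of all genes were called. Of the genes tested Fbxo32 parted the tissues most, with median levels of 2382 CPM in muscle, 7.55 CPM in liver and 23 CPM in adipose tissue, and log2 fold changes of 8.07 (SE 0.34) and 6.46 (SE 0.34). Trim63, which did not pass the filter in the other tissues, lay wider apart, with medians of 5401 CPM in muscle, 0.146 CPM in liver and 1.48 CPM in adipose tissue. Fbxo30 was higher in muscle by 1.79 (SE 0.21) over liver and 2.20 (SE 0.21) over adipose tissue, and Foxo3 by 1.28 (SE 0.25) and 1.45 (SE 0.25). Foxo1 was higher by 1.16 (SE 0.43, adjusted p = 0.0202 from limma) and 1.05 (SE 0.43, adjusted p = 0.0351). Fbxo21 was lower in muscle, with medians of 20.2 CPM there, 182 CPM in liver and 119 CPM in adipose tissue, and fold changes of -3.22 (SE 0.35) and -2.69 (SE 0.35). Klf15 did not differ between muscle and liver (0.05, SE 0.36, adjusted p = 0.903) and was higher in muscle than in adipose tissue (1.94, SE 0.36). Ddit4 had 3.93 (SE 0.80) over liver and 2.07 (SE 0.80) over adipose tissue; its muscle libraries are those of the comparison that chose it, so these values have no test. The scaling matters here, since values scaled to each library's total reads move the median of all genes between muscle and adipose tissue from -0.02 to -0.84, and between muscle and liver from -0.04 to 0.21. Under that scaling Foxo1 over adipose tissue was 0.19 and was not called, and Ddit4 had 1.21, while Fbxo32 stood at 5.60, Fbxo30 at 1.38, Foxo3 at 0.60, Klf15 at 1.08 and Fbxo21 at -3.54. Against liver it kept every call, with Foxo1 at 1.42. Leaving out single libraries gave 0.88 to 1.48 for Foxo1 over adipose tissue, called in 4 of 12 fits, 1.70 to 2.70 for Ddit4, and 0.99 to 1.59 for Foxo1 over liver, called in 9 of 12.

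**Figure D4:**
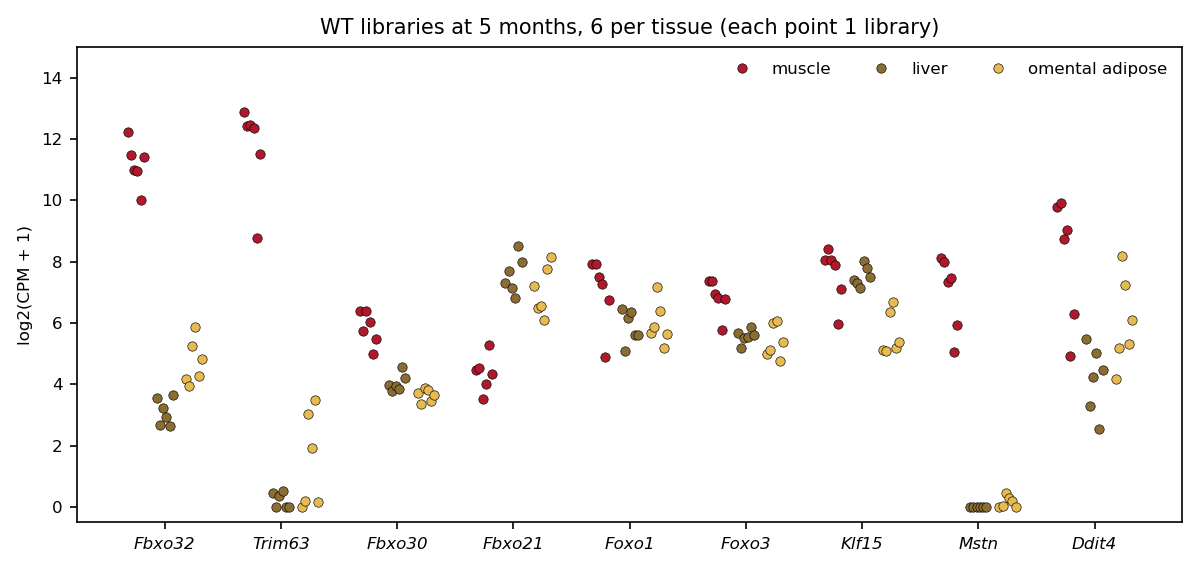
Level of the 9 genes as log2(CPM + 1) in WT libraries of muscle, liver and omental adipose tissue at 5 months. Fbxo32, Trim63 and Mstn lie far higher in muscle, and Fbxo21 lies lower there than in the other tissues.

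In liver Ddit4 was the gene of the set that changed with age in WT mice. WT liver at 5 months read 43.7, 8.91, 17.7, 31.7, 4.87 and 21 CPM, and at 20 months 3.12, 4.39, 7.82, 2.96 and 3.99 CPM. The log2 fold change was -1.79 (SE 0.50, adjusted p = 0.0328 from limma), with 5 of 6 young libraries above every old one; 4.36% of genes were called lower in that comparison. With only the libraries without Xist it was -1.57 and not called (adjusted p = 0.146). It was not called without W18L01, W18L02, W18L04, W18L05, W5L5004, W5L5041 or W5L5042 either, with values from -1.53 to -1.81 and an adjusted p of at most 0.0813. In KO liver Ddit4 went from 83.3, 33.0, 16.8, 11.8, 5.40 and 19.2 CPM at 5 months to 7.75, 7.26, 6.96, 9.66 and 7.29 CPM at 20 months, with -1.26 (SE 0.50, adjusted p = 0.172 from limma). Without K5L5218 it was -1.60 with an adjusted p of 0.0477. The lowest young value in each genotype, W5L5277 and K5L5218, lay within the range of the old libraries of the same genotype or below it. All 7 genes were below 0 in KO liver ageing and 0 were called by limma, 0 by edgeR and 1 by DESeq2, with 2 at an unadjusted p under 0.05, beside 2.99% of all genes called and 19.2% at that unadjusted p. Macrophage markers were lower in old liver of both genotypes, 3 of 6 called and 6 of 6 below 0 in each. Their sum went from 171 to 379 CPM at 5 months to 129 to 195 CPM at 20 months in WT, and from 255 to 503 CPM to 171 to 231 CPM in KO liver, with reads of all 6; their part in the values of Ddit4 was not tested. Fbxo32 had -0.50 (SE 0.22, adjusted p = 0.214) and Klf15 -0.45 (SE 0.22, adjusted p = 0.264) there. KO against WT liver had 0 of 7 called at 5 months and at 20 months by limma, edgeR and DESeq2, beside 0.0696% and 0.0232% of all genes by limma. Foxo3 at 20 months (-0.37, SE 0.16) was the 1 with an unadjusted p under 0.05, beside 5.80% of all genes.

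In omental adipose tissue Klf15 fell with age in both genotypes. WT libraries read 34.0, 32.8, 81.9, 103, 35.6 and 40.5 CPM at 5 months and 14.9, 14.7, 11.6, 25.4 and 12.6 CPM at 20 months, without overlap. The log2 fold change was -1.62 (SE 0.38, adjusted p = 0.0118 from limma); 3.36% of genes were called lower and 4.65% were lower without overlap. With only the libraries without Xist it was -1.17 with an adjusted p of 0.0816. KO libraries read 72.5, 56.7, 62.8, 42.8, 17.6 and 24.6 CPM at 5 months and 8.53, 18.9, 28.5, 27.9 and 12.1 CPM at 20 months. The groups overlapped, and the fold change was -1.20 (SE 0.38, adjusted p = 0.0422), where 3.75% of all genes were called lower. Markers of other cells moved in the same libraries. In WT 4 of 5 tested B cell markers (median 2.02) and 4 of 5 T cell markers (median 1.04) were called higher at 20 months. Of all genes 7.41% were called higher there. The 6 mesothelial markers lay below 0 with Krt19 called. In KO 3 of 5 B cell, 2 of 6 endothelial and 1 of 6 macrophage markers were called higher, beside 10.5% of all genes. Adipocyte markers split, with Cfd and Retn lower in both genotypes and Lep higher in KO. The summed B cell markers ran from 26.5 to 109 CPM at 5 months and from 82.8 to 355 CPM at 20 months in WT, and from 34.4 to 109.7 CPM and from 48.3 to 162 CPM in KO. The T cell sum ran from 4.49 to 12.4 CPM and from 13.8 to 50.01 CPM in WT, without overlap, and the mesothelial sum from 185 to 959 CPM and from 71.1 to 401 CPM. The adipocyte sum ran from 19587 to 36794 CPM and from 11681 to 18993 CPM in WT, also without overlap, and from 10270 to 37726 CPM and from 11635 to 21716 CPM in KO. Trac and Ighm were at 0 in every adipose library, and the part of these markers in the result was not tested.

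Ddit4 in adipose tissue fell with age in KO mice, from 260.3, 265, 141, 79.3, 29.2 and 78.5 CPM to 30.5, 27.5, 45.1, 40.3 and 19.7 CPM. The log2 fold change was -1.78 (SE 0.57, adjusted p = 0.0420 from limma), and K5F5218 alone among the young libraries lay in the old range. Neither Klf15 nor Ddit4 was called in KO mice with a sex covariate (-0.89 and -1.38). Leaving out K18F26, K18F27, K18F29, K18F30, K5F4284, K5F4285 or K5F5116 also ended both calls, K5F5118 that of Klf15 and K5F5248 that of Ddit4, and without K5F4285 Fbxo30 was called higher (0.43). Over these fits Klf15 ranged from -1.43 to -0.96 and Ddit4 from -2.16 to -1.53. In WT adipose tissue Ddit4 ran from 17.3 to 291 CPM at 5 months and from 31 to 39.9 CPM at 20 months, with -0.83 (SE 0.57, adjusted p = 0.334). The 2 highest young values, 291 and 151 CPM, came from the libraries with Xist, and without those the fold change was 0.01. KO against WT adipose tissue had 0 of 7 genes called at either age by limma, edgeR and DESeq2, and 0 at an unadjusted p under 0.05, beside 11.8% and 2.25% of all genes; 0.105% and 0% of all genes were called by limma.

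**Figure D5:**
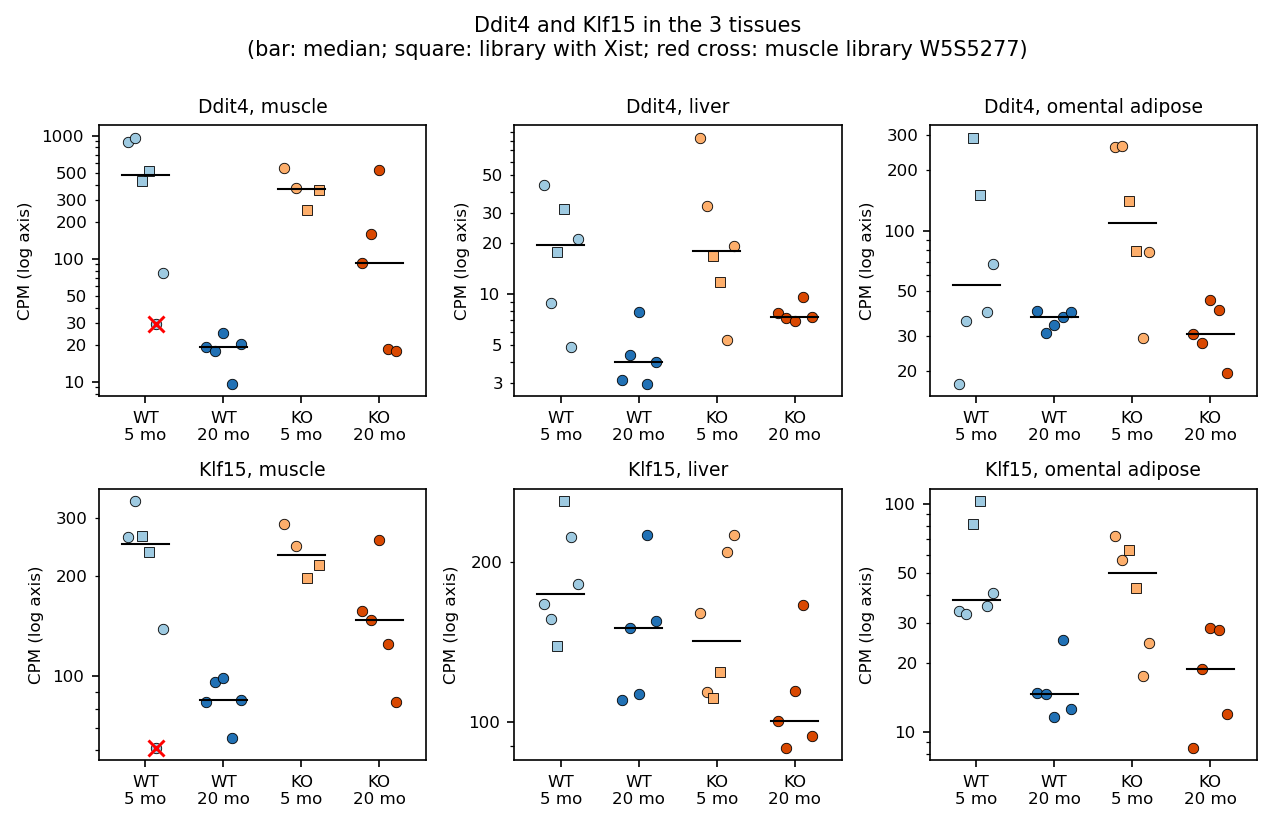
Ddit4 and Klf15 in muscle, liver and omental adipose tissue, in CPM on a log axis, by genotype and age; bars are medians. Ddit4 medians are lower at 20 months in all 3 tissues, and its young libraries spread more widely than the old ones in liver and adipose tissue.

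The effect of age in KO mice was also compared between tissues. Of 7 genes, 0 had an effect in muscle that differed from that in liver or in adipose tissue by limma, where 1.32% and 7.93% of 11330 genes did, and 1 had an unadjusted p under 0.05 against liver, beside 14.4% of all genes. The gene nearest to a difference was Fbxo21, whose change in muscle exceeded that in liver by 1.22 (SE 0.43, unadjusted p = 0.00669, adjusted p = 0.149). Ddit4 differed between muscle and liver by -0.99 (SE 1.03) and between muscle and adipose tissue by -0.47 (SE 1.03). A difference of that size is within its error, which does not show that the tissues respond alike.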

How the data were processed

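The deposited table holds 36333 entries and 64 library columns called CPM, per the file headers. Each column is a read signal that the authors scaled by a factor per library before they deposited it, since column sums ran from 0.529 to 1.64 M. Per the submitters' processing notes the builds are GRCm38.p6 and mm10; the aligner, the annotation and whether counting used strand are not given in the sources used here. Values were whole multiples of 1 read within 0.1 reads for 100% of values, which gave 15.4 to 28.5 M reads on genes per library (median 19.6 M). Of 36332 gene IDs, 35336 had a RefSeq symbol.

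The 9 genes, the gene lists and the tests were chosen with earlier results of these data known. The unit planned for was CPM, and the same log-scale test was used for the scaled signal. A gene was tested where it passed 1 CPM in a number of libraries no smaller than the smallest group, 13237 in muscle, 12924 in liver and 14286 in adipose tissue. The test was limma 3.58.1 (R 4.3.3) on log2(CPM + 1) with a variance trend, a model of the 4 group means of each tissue and Benjamini-Hochberg adjustment, called at an adjusted p under 0.05. Ddit4 was given no test of a difference between groups where the WT muscle libraries that chose it entered that difference. Counts of called genes leave it out there, while counts of correlated pairs include it. In KO muscle ageing those libraries entered only the variance shared by the fit. Alternatives were pseudocounts, filters, scalings, a sex covariate, fits on the groups compared, libraries left out, edgeR 4.0.16 and DESeq2 1.42.0 on recovered reads; edgeR called 2466 genes in WT muscle ageing and 844 in KO muscle ageing, beside 2463 and 737 by limma. The scripts were tested on simulated data. Named were all 9 genes, the called list genes with the largest change (at most 4 a list), the nearest patterns and Myc. Dbp and Fkbp5 were named outside that rule. Correlations used 100000 permutations within groups (Python 3.11.15, scipy 1.17.1). Promoters came from a RefSeq table of GRCm38.p6.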

Additional observations from a re-analysis of the deposited data

Results flagged for a closer look

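In 5 of 93 sets of values, 1 gene in a group of 4 to 6 libraries each, 1 library lay farther from the others than Dixon's 95% limit allows; chance flags about 1 in 20. In WT muscle at 5 months W5S5277 had 433.4 CPM of Trim63, with the other libraries between 2898 and 7490 CPM, and 53.72 CPM of Foxo3, with the others between 109.5 and 165.7 CPM. It was also the lowest of its group for the other 6 genes apart from Fbxo21, without passing that limit. In KO muscle at 5 months K5S5116, a library with Xist, had 4248 CPM of Trim63 beside 5380 to 5463 CPM, and K5S4285 had 174.3 CPM of Mstn beside 103.3 to 112.9 CPM. In KO adipose tissue at 20 months K18F27 had 29.93 CPM of Foxo3 beside 45.34 to 51.93 CPM.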

How the results depend on the processing

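Of 420 recomputed counts of called genes of the set, 392 stayed within 1.5 times their value; in WT muscle ageing, which was not tested, 8 genes lay below 0 in all 21 recomputed fits. The counts that moved were as follows. DESeq2 called 1 gene in KO liver ageing where limma called 0 (Ddit4, -1.84) and 2 in WT adipose ageing where limma called 1. A fit on the 2 groups compared called 1 gene in KO muscle ageing in place of 0 (Fbxo21, adjusted p = 0.0457 by limma; 0.0970 with 4 groups and 0.0535 to 0.249 with 1 library left out). In WT liver ageing the count of 1 went to 0 with pseudocount 5, with no filter and with only the libraries without Xist, and ranged over 0 to 1 with 1 library left out. In KO liver ageing that range was 0 to 1. In KO adipose ageing the count of 2 went to 0 with no filter, with a sex covariate and in the fit on 2 groups, to 1 without the Xist libraries, and ranged over 0 to 2 with 1 library left out. In WT adipose ageing it went from 1 to 0 without the Xist libraries.

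Signs turned mostly for values near 0. In KO muscle ageing Fbxo30 was 0.0089 with scaling to total reads and 0.024 with a sex covariate, and Fbxo32 -0.13 with that covariate and -0.17 without the Xist libraries. In KO against WT muscle at 5 months Foxo3 was -0.013 and Ddit4 -0.37 with edgeR, -0.0081 and -0.36 with DESeq2; Fbxo21 was 0.077 with a sex covariate, and Fbxo30 0.13 and Mstn 0.37 without the Xist libraries. In the interaction Fbxo21 was -0.076 with a sex covariate and Mstn -0.13 without the Xist libraries, where Ddit4 in WT adipose ageing was 0.0085 and Klf15 between muscle and liver -0.12. With 1 library left out, KO against WT at 5 months gave -0.10 to 0.35 for Fbxo32, -0.0073 to 0.81 for Trim63, -0.24 to 0.042 for Fbxo30, -0.27 to 0.15 for Fbxo21, -0.0070 to 0.60 for Foxo1, -0.12 to 0.20 for Foxo3, -0.021 to 0.47 for Klf15, -0.43 to 0.19 for Mstn and -0.22 to 0.78 for Ddit4. Fbxo21 ranged from -0.13 to 0.12 at 20 months and from -0.15 to 0.27 in the interaction, Fbxo32 from -0.12 to 0.22 in KO muscle ageing, and Klf15 between muscle and liver from -0.11 to 0.38.

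Code numbers shared across tissues did not pair every WT library at 5 months: the deviations of 14 same-numbered pairs correlated between -0.14 and 0.47, with 11 over 0.1, across 9710 genes. With the number as a replicate block, Klf15 between muscle and liver was -0.20 (adjusted p = 0.561 by limma), 5 of 6 tested genes were called against liver and 5 in place of 6 against adipose tissue, where Foxo1 had 0.54 and was not called; Ddit4 had 0.85 there. Calls over all genes in WT muscle ageing ran from 855 without the Xist libraries to 3838 without W5S5277, and in KO muscle ageing from 129 without K5S4284 to 1778 in the fit on 2 groups. Groups of 4 to 6 libraries with a Ddit4 standard error near 0.9 limit what can be called.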

Other observations

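At 5 months some code numbers recur across tissues, and the labels do not say whether they are 1 mouse. For Ddit4, W5S5277 was the lowest WT library in muscle (29.3 CPM) and W5L5277 the lowest in liver (4.87 CPM), and W5F5277 read 39.3 CPM in adipose tissue. Among KO libraries K5S4284, K5L4284 and K5F4284 were high, with 549, 83.3 and 260.3 CPM in muscle, liver and adipose tissue. The lowest were K5L5218 in liver (5.40 CPM) and K5F5218 in adipose tissue (29.2 CPM). Fbxo21 was the highest of the WT libraries in W5S5277 (37.9 CPM) and W5L5277 (361 CPM), and next to the highest in W5F5277 (216 CPM). It was the lowest in W5L5042 (111 CPM) and W5F5042 (68.0 CPM).

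The clock output gene Dbp, named outside the rule for list genes, varied within muscle groups. It is given for some of the libraries low for the set, K18S63 not among them, so the values describe those libraries only. It read 68.2 CPM in W5S5277, where the group median was 11 CPM, 148 CPM in W18S66 beside a median of 27 CPM, and 52.8 CPM in K18S64 beside 7.14 CPM. Its tie to the 9 genes was not tested. Fkbp5, a glucocorticoid-induced chaperone chosen after its values were seen, was lowest in W5S5277 (53.4 CPM beside a median of 448 CPM) and highest among old KO libraries in K18S62 (409 CPM).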
